A study of Mus musculus with 23 samples.

Results

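The genes described here encode the working parts of the lysosome: its hydrolases and their lipid-binding partners, proteins of its membrane, and the proton pump that acidifies it. The rule lists 29 genes of known lysosomal function by name and adds every gene whose symbol begins with Atp6v. This choice of genes uses no measured value, although it was set with earlier results of these data known. A probe set, the group of array probes that reports 1 transcript, was found for 27 of the 29 and for 13 Atp6v genes. That gave 40 of the 8251 genes on the array. Aga and Arsb had none under these symbols. Each gene was represented by its probe set of highest mean signal.

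The samples were whole hippocampi of male C57BL/6JNIA mice, an inbred strain, aged 2 months (9 mice, young) or 15 months (14 mice, middle-aged), with 1 array per mouse. Mice of both ages had been housed in groups and trained in the Morris water maze, a spatial memory task in a pool, with 2 days of a visible platform followed by 7 days of a hidden one, and were killed by cervical dislocation, so no untrained mice were compared. The comparison asks how transcript levels in the hippocampus differ between young adulthood and middle age. Because the tissue is a mixture of cell types, fewer cells of a type and less RNA per cell cannot be told apart in any of these values.

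Lysosomes break down macromolecules delivered by endocytosis and autophagy, using enzymes most of which work best in an acid lumen. The acid is made by the vacuolar proton pump, in which the cytosolic V1 sector hydrolyses ATP and the membrane-embedded V0 sector carries protons across; neurons also use this pump to load synaptic vesicles. Loss of many of these enzymes and membrane proteins causes storage diseases in which the brain is often affected. Many lysosomal promoters hold a short palindrome bound by TFEB, a transcription factor of lysosome formation.

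The rule did not use that palindrome. It was, however, described from promoters of lysosomal genes. A higher share among genes chosen as lysosomal was therefore foreseeable and is no independent support. Promoter sequences, from 250 bases before to 50 after the start of transcription, came from RefSeq (mouse build GRCm38.p6) and were matched by symbol for 33 of the 40 genes. TCACGTGA, which contains the shorter CACGTG and reads the same on both strands, was present in 6 of the 33 (18.2%) and in 1.12% of all 27025 genes in the table. CACGTG alone or within the longer motif was present in 12 of the 33 (36.4%) and in 8.09% of all genes. The motifs were not particular to these genes. Of 37 other lysosome genes with a matched promoter, 5 (13.5%) held TCACGTGA and 9 (24.3%) held CACGTG. Among the 33, the 6 with TCACGTGA were Atp6v1a, Atp6v0d1, Atp6v0e, Ctsa, Cln3 and Gla, and those with only CACGTG were Arsa, Atp6v0b, Gaa, Glb1, Lamp1 and Lgmn. The windows printed here, chosen among the genes tested by lowest p, show the motif in capitals with its flanks for 4 genes, 2 of them pump subunits. They lie at chr16:44139354-44139421 (minus strand) for Atp6v1a, chr2:164833749-164833778 (plus strand) for Ctsa, chr8:105566050-105566079 (minus strand) for Atp6v0d1 and chr7:126583340-126583369 (minus strand) for Cln3. The motif's first base stood 132 bases before the listed start of transcription whose window holds it in Atp6v1a, 13 in Ctsa, 4 in Atp6v0d1 and 122 in Cln3. Ctsa held a second copy that began 4 bases after the start, and its printed window, drawn around the first copy, ends within the second.
Atp6v1a: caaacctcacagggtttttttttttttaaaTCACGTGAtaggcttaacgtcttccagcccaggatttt
Ctsa: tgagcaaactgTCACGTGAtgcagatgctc
Atp6v0d1: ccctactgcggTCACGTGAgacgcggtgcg
Cln3: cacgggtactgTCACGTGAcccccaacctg
A match describes the letters in this window and does not show that a factor bound there. The genes carrying TCACGTGA had estimates on both sides of 0 between the ages: among the 5 tested, log2 differences (15-month minus 2-month) were 0.074 for Atp6v1a, 0.061 for Ctsa, 0.0051 for Atp6v0e, -0.032 for Atp6v0d1 and -0.056 for Cln3.

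As a description of the tissue, neuronal markers and markers of the dentate gyrus and the CA1 and CA3 fields had mean log2 levels of 10.5 to 11 and 9.86 to 10.4. Only markers bright enough to be tested entered these means, which left out the dentate marker Prox1, so they cannot test the dissection. The mean log2 level of 4 markers of neighbouring tissue was 7.52 to 8.53. The sources used here name neither a batch nor a scan date. The titles number the ages in separate runs, so age and any order of handling cannot be told apart. Of 14 array measures compared by exact two-sided permutation tests with Benjamini-Hochberg adjustment, 2 differed between ages. The mean log2 level of 12 microglia markers was 9.15 ± 0.082 (SD, n = 14) at 15 months and 8.91 ± 0.082 (SD, n = 9) at 2 months (adjusted p = 6.85e-05), and that of 11 astrocyte markers was 11.4 ± 0.12 and 11.2 ± 0.10 (adjusted p = 0.0228). The 3′ to 5′ ratios of the Gapdh and actin controls, a sign of RNA quality, and the 25th, 50th and 99th percentiles of signal did not pass the test. Neither did the markers of neighbouring tissue, with means of 8.04 at 15 months and 8.26 at 2 months (exact permutation p = 0.0453, adjusted p = 0.211).

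None of these genes passed the test for a difference between ages. Signals, on the linear scale of the array software, were compared as log2(signal + 16) with limma, a linear model that pools the spread over genes, with Benjamini-Hochberg adjustment over 7453 probe sets and a false discovery rate of 0.05. Of the 40 genes 36 were bright enough to be tested, and 0 of the 36 were called, against 28 of the 7453 probe sets (0.376%), 25 of them higher at 15 months (0.335%) and 3 lower (0.0403%). At an unadjusted p below 0.05 limma gave 2 of the 36, Laptm4a and Atp6v1d, against 12.4% of all probe sets, and the exact Mann-Whitney test also called 0 after adjustment.

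Log2 differences (15-month minus 2-month) ran from -0.18 in Gusb to 0.27 in Laptm4a, with a median of 0.018 against -0.016 over all probe sets tested. For 29 of the 36 the 95% interval lay within a 1.25-fold difference in either direction, against 57.9% of all probe sets, and for all 36 it lay within 1.5-fold, against 92% of all probe sets. The 7 with wider intervals than 1.25-fold were Neu1, Gusb, Ids, Lgmn, Laptm4a, Lamp2 and Atp6v0a1. The median standard error was 0.073 for the 36 genes, 0.097 over all probe sets and 0.094 over genes at 1 probe set each. A mean signal below 1000 was found for 14 of the 36 and for 5464 of the 7453 probe sets tested. Whether brightness accounts for the narrower intervals was not tested. In lists described below, the interval lay within 1.25-fold for 18 of 18 autophagy genes, 13 of 16 sorting genes and 6 of 7 regulators. It did so for 17 of 27 other lysosome genes. Differences above 0 were found for 22 of the 36, against 45% of all probe sets and 45.8% of genes at 1 probe set each. This majority shrank to 19 with quantile normalization and to 18 when the probe sets of a gene were averaged. In none of the 36 did the signals of the ages separate without overlap, which 0.0537% of all probe sets did.

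**Figure D1:**
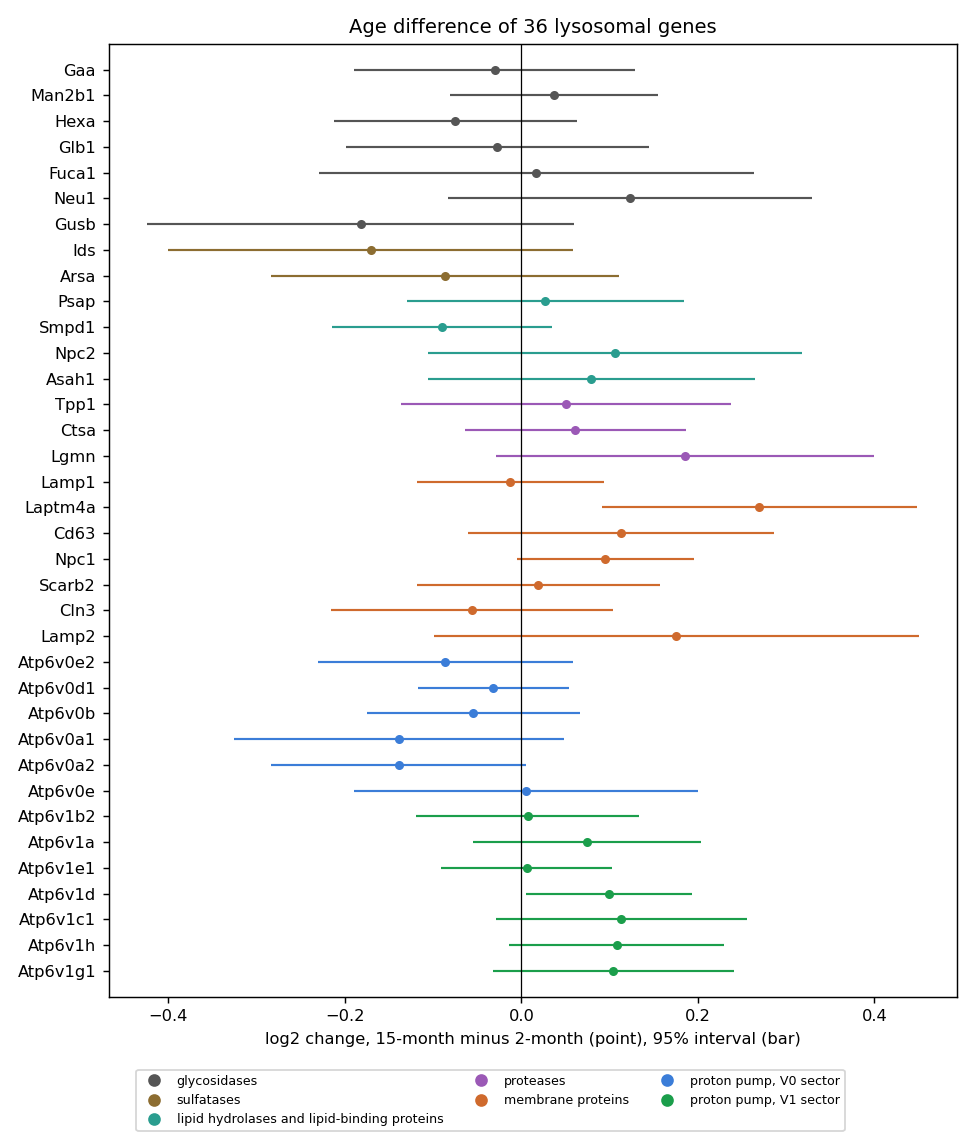
Log2 difference between ages (15-month minus 2-month, points) with its 95% interval (bars) for the 36 lysosomal genes tested, coloured by role. Estimates run from -0.18 (Gusb) to 0.27 (Laptm4a), and the intervals of only Laptm4a and Atp6v1d lie wholly on 1 side of 0, before adjustment.

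Among the glycosidases, which cut sugars from glycans and glycolipids, 7 of 9 were tested, with 3 estimates above 0 and 4 below. Gusb (beta-glucuronidase, which degrades glycosaminoglycans) had signals of 111 to 144 (median 125) in the 2-month mice and 70.2 to 189 (median 110.2) in the 15-month mice. The lowest signals, below the whole 2-month range, were those of 7 older mice, but another older mouse was the highest of all, so the ranges overlapped. The log2 difference was -0.18 ± 0.12 (SE), adjusted p = 0.538. Hexa, the alpha subunit of the beta-hexosaminidase that degrades GM2 ganglioside, had signals of 579.6 to 733 (median 642) in the 2-month mice and 427 to 669.5 (median 629) in the 15-month mice. The ranges overlapped, with 3 older mice below every young mouse and none above, and the log2 difference was -0.075 ± 0.067 (SE), adjusted p = 0.684. Gaa, the acid alpha-glucosidase that degrades glycogen, had signals of 3376 to 5246 (median 4599) in the 2-month mice and 3195 to 5051 (median 4307) in the 15-month mice. Older mice lay on both sides of the 2-month mean, 6 above and 8 below, with a log2 difference of -0.030 ± 0.078 (SE), adjusted p = 0.894.

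Both sulfatases tested had estimates below 0. Ids, iduronate-2-sulfatase, which acts on heparan and dermatan sulfate, had signals of 245 to 488 (median 380.4) in the 2-month mice and 239 to 429 (median 328) in the 15-month mice. Its highest values belonged to 2-month mice, yet the lowest values of the ages were nearly equal, and 11 of the 14 older mice lay below the 2-month mean. The log2 difference was -0.17 ± 0.11 (SE), adjusted p = 0.541. Arsa, arylsulfatase A, had a log2 difference of -0.087 ± 0.096 (SE), adjusted p = 0.753.

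Of the 4 lipid-handling enzymes and helpers tested, 3 had estimates above 0 and 1 below. Smpd1, the acid sphingomyelinase, had signals of 4022 to 4690 (median 4303) in the 2-month mice and 3248 to 4964 (median 4069) in the 15-month mice. The 2-month mice lay within the wider range of the older mice, 6 of which were below every young one. The log2 difference was -0.090 ± 0.061 (SE), adjusted p = 0.551. Psap, the precursor of the saposins that present sphingolipids to their hydrolases, had signals of 6254 to 8830 (median 7800) in the 2-month mice and 5530 to 8939.7 (median 8014) in the 15-month mice. The young mice lay within the range of the older ones, with a log2 difference of 0.027 ± 0.076 (SE), adjusted p = 0.904. Other Psap probe sets gave -0.13 and 0.058, so the sign depended on the probe set. Of the proteases, Tpp1 (tripeptidyl peptidase) had signals of 1123 to 1965 (median 1637) in the 2-month mice and 1247 to 2163 (median 1703) in the 15-month mice. The ranges overlapped, and the log2 difference was 0.050 ± 0.091 (SE), adjusted p = 0.847. Lgmn, the asparaginyl endopeptidase legumain, had signals of 404 to 909.6 (median 619) in the 2-month mice and 504 to 908 (median 713) in the 15-month mice. Although 12 of the 14 older mice exceeded the 2-month mean, the highest signals of the ages were nearly the same, and the log2 difference was 0.19 ± 0.10 (SE), adjusted p = 0.480.

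The largest estimate among the 36 tested genes was that of a membrane protein. Laptm4a, a small transmembrane protein of late endosomes and lysosomes, had signals of 3583 to 6635 (median 5521) in the 2-month mice and 4975 to 8821 (median 6356) in the 15-month mice. All but 1 of the 14 older mice lay above the 2-month mean, and 5 lay above every young mouse, while the lowest young mouse stood well below all the others. That lowest young mouse is the young mouse of high Ttr described below. The older mice were 1.21-fold (95% interval 1.07 to 1.36) higher, a log2 difference of 0.27 ± 0.087 (SE), adjusted p = 0.196, which did not pass the threshold. Leaving out each mouse in turn gave adjusted p values of 0.118 to 0.331. Without the 5 arrays of high Ttr described below the log2 difference was 0.19 (adjusted p = 0.515). With the choroid plexus level, also described below, as a covariate it was 0.29 (adjusted p = 0.202), so the 2 alternatives moved it in opposite directions.

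Npc1, which exports cholesterol from the lysosome, had signals of 934 to 1137 (median 1083) in the 2-month mice and 1026 to 1277 (median 1134) in the 15-month mice. The shift was small and the spread tight, with 12 of the 14 older mice above the 2-month mean and a log2 difference of 0.095 ± 0.049 (SE), adjusted p = 0.426. Lamp1, the abundant glycoprotein of the lysosomal membrane, had signals of 6091 to 7234 (median 6936) in the 2-month mice and 5375 to 7367 (median 6759.9) in the 15-month mice. The young mice lay within the range of the older ones, whose level was 0.99-fold (95% interval 0.92 to 1.07) that of the young, with a log2 difference of -0.012 ± 0.051 (SE), adjusted p = 0.938. Lamp2, its homologue that also serves chaperone-mediated autophagy, had signals of 227 to 440.4 (median 364) in the 2-month mice and 264 to 581 (median 416) in the 15-month mice. The older mice spread over more than the 2-month range, 7 of them above and 0 below it, and the log2 difference was 0.18 ± 0.13 (SE), adjusted p = 0.619. A less bright Lamp2 probe set gave 0.17 (adjusted p = 0.594).

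**Figure D2:**
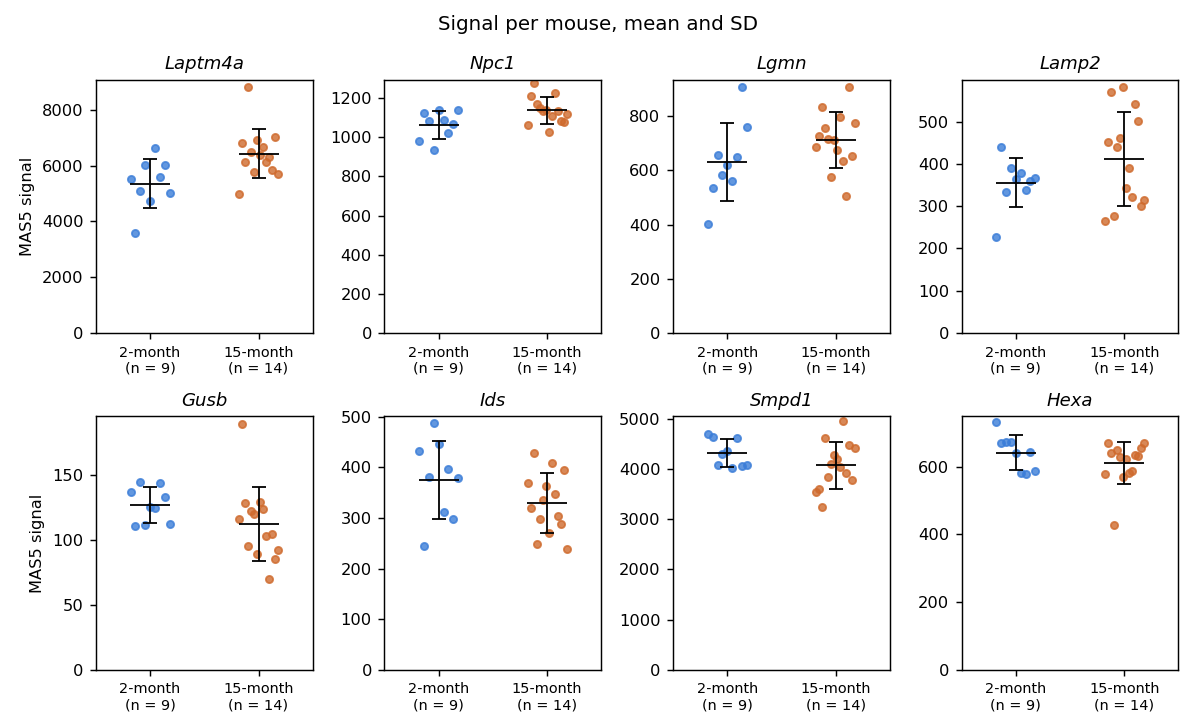
Signal in each mouse (points, linear axis from 0) with the mean and SD (bars) at 2 months (n = 9) and 15 months (n = 14). Shown are the 4 genes outside the pump with the highest estimates and the 4 with the lowest. They were taken among those whose lowest, median and highest signals are given for each age. The ages overlap in every panel, with Lamp2 spread from 264 to 581 among the older mice.

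Lamp2 was high in the mice with a high signal of a choroid plexus marker. That marker, Ttr, whose source in the brain lies against the hippocampus, had signals of 3714 to 9922 in 4 of the 15-month mice and 9134 in 1 of the 2-month mice, and of 68.9 to 1377 in the other 18. Lamp2 signals were 440.8 to 581 (median 556) in those 4 older mice and 264 to 500.4 (median 333) in the other 10, and 440.4 in that young mouse against 227 to 389.6 in the other 8. Those mice thus lay above most others of their age for Lamp2. A pair of other genes, chosen after their values were seen, had high signals in the same young mouse. Npc2, the soluble partner of Npc1 that binds cholesterol, was 1110.3 to 1367 in the 4 older mice and 768 to 1243 in the other 10. Its signal was 1226 in the young mouse and 736 to 1202 in the other 8. Cd63, a tetraspanin of late endosomes, was 1256 to 1503 in the 4 and 986 to 1417 in the 10, and was 1518 in the young mouse against 979 to 1298 in the 8. For both, that young mouse was the highest of its age, and high-Ttr and other mice overlapped among the older ones. The same young mouse was also the highest of its age for Fuca1, Neu1 and Atp6v0e. It was the lowest of its age for Laptm4a (3583 against 4733 to 6635 in the other 8) and Ids (245 against 298 to 488). The same held for Atp6v0a1 (978 against 1295 to 1906) and, narrowly, for Gusb (110.5 against 111.1 to 144). The mean log2 level of the 5 choroid plexus markers tested, of 8 on the array, spanned 7.51 to 10.5 at 15 months and 7.30 to 10.4 at 2 months, and 0 of the 5 were called. With that level as a covariate the log2 difference of Lamp2 was 0.083 (adjusted p = 0.817), and without the 5 high-Ttr arrays it was 0.055 (adjusted p = 0.914). For Npc2, at 0.11 with all mice, these values were 0.042 and 0.049. For Cd63, also at 0.11 with all mice, they were 0.063 and 0.11, so leaving out the arrays did not lower it. Among the other 18 mice, as deviations from the means of each age, Pearson's r with the choroid plexus level was 0.15 for Lamp2, 0.17 for Npc2 and 0.16 for Cd63, and Spearman's rho was 0.21, 0.35 and 0.31. By two-sided permutation tests p was 0.540, 0.523 and 0.544 for r and 0.392, 0.154 and 0.202 for rho, and after adjustment over the 36 genes it was 0.945 for each r and 0.841 for each rho. Without the 2 mice farthest from the median r was 0.25, 0.28 and 0.44.

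**Figure D3:**
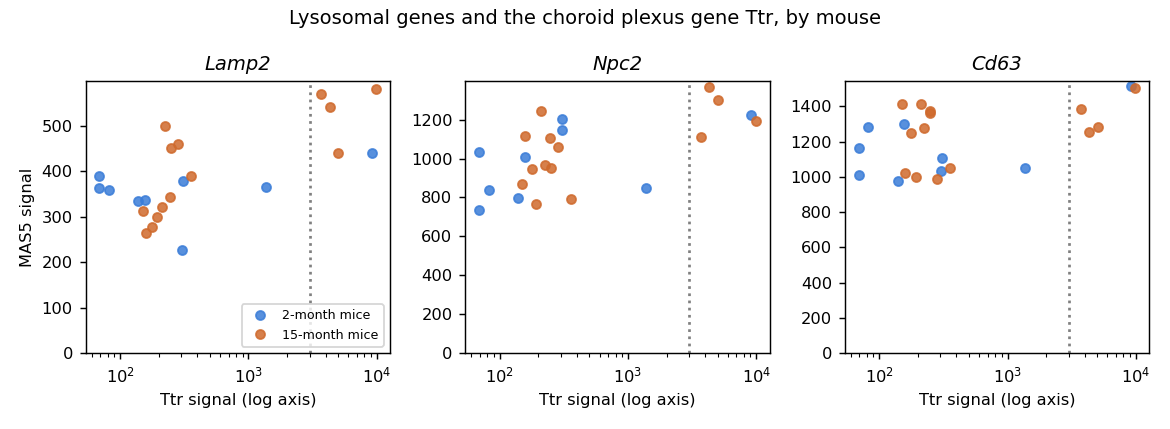
Signal of Lamp2, Npc2 and Cd63 (linear axis from 0) against that of Ttr (log axis) in each of 23 mice, coloured by age; the dotted line marks a Ttr signal of 3000. The 5 mice to its right include the highest Lamp2 signals, up to 581.

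The other 11 genes tested outside the pump were Man2b1, Glb1, Fuca1 and Neu1 (glycosidases), Arsa, Asah1 (acid ceramidase), Npc2, Ctsa (the protective protein cathepsin A), Cd63, Scarb2 (the carrier of glucocerebrosidase to lysosomes) and Cln3. Their log2 differences ran from -0.087 to 0.12, with 8 above 0 and 3 below, and adjusted p from 0.605 to 0.967. Galc, Gla, Lipa and Ppt1 were too dim to be tested. When the filter was dropped the log2 difference was -0.12 ± 0.20 (SE) for Galc (adjusted p = 0.902), -0.19 ± 0.27 for Gla (0.883), -0.58 ± 0.27 for Lipa, the acid lipase (0.480), and -0.11 ± 0.13 for Ppt1 (0.857). The Lipa estimate was thus larger in size than any among the tested genes, from signals below the filter.

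Within the proton pump the estimates of the V1 genes lay above 0 and most of those of the V0 genes below. All 13 Atp6v genes were tested, and 0 passed the threshold. In the V0 sector 5 of 6 estimates were below 0 (median -0.070), and in the V1 sector 7 of 7 were above 0 (median 0.099), against 45% of all probe sets above 0. The V1 count was 5 of 7 with quantile normalization and with averaged probe sets, and 6 of 7 with the 25th percentile of each array as a covariate; the V0 count was 6 of 6 below 0 with the choroid plexus covariate or without the 2 arrays farthest from the rest. Without the 5 high-Ttr arrays the V0 median was -0.036 and the V1 median 0.075. This grouping was noticed after the values were seen and was given no test. The mean log2 level of the V1 genes minus that of the V0 genes was 0.62 to 1.02 (median 0.82) in the older mice and 0.49 to 0.87 (median 0.74) in the young mice, so the ages overlapped.

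Within V0, the a subunit forms the proton path and exists as isoforms. Atp6v0a1, the main neuronal isoform, had signals of 978 to 1906 (median 1455) in the 2-month mice and 1075 to 1662 (median 1309) in the 15-month mice. Young mice held both extremes, 10 of the 14 older mice lay below the 2-month mean, and the log2 difference was -0.14 ± 0.091 (SE), adjusted p = 0.542. Atp6v0a2, another isoform, had signals of 1075 to 1585 (median 1470.3) in the 2-month mice and 948 to 1396 (median 1309) in the 15-month mice. The mean signal of the 2-month mice was above the signal of 14 of the 14 older mice, the highest of which came close to it, and the log2 difference was -0.14 ± 0.071 (SE), adjusted p = 0.421. Its other probe sets gave -0.20 (adjusted p = 0.361) and -0.047 (adjusted p = 0.889).

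Atp6v0b, a proteolipid of the rotating ring, had signals of 4507 to 5878 (median 4987) in the 2-month mice and 4047 to 5604 (median 4940.3) in the 15-month mice. The ranges overlapped, with older mice at the low end, and the log2 difference was -0.054 ± 0.059 (SE), adjusted p = 0.744. Atp6v0d1, the subunit that joins the ring to the central stalk, had signals of 4999.6 to 5852 (median 5395) in the 2-month mice and 4699 to 5724 (median 5196) in the 15-month mice. The ranges overlapped over most of their width, with a log2 difference of -0.032 ± 0.042 (SE), adjusted p = 0.796. Atp6v0e and Atp6v0e2 encode small e subunits of V0. Atp6v0e had signals of 374 to 537 (median 449.6) in the 2-month mice and 299 to 605 (median 452) in the 15-month mice. The older mice covered and exceeded the young range on both sides, and the log2 difference was 0.0051 ± 0.095 (SE), adjusted p = 0.990. Atp6v0e2 had signals of 6253 to 8777 (median 8152) in the 2-month mice and 5906 to 8620.2 (median 7596) in the 15-month mice. Low values occurred at both ages, and the log2 difference was -0.086 ± 0.070 (SE), adjusted p = 0.649.

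In V1, subunits A and B form the ring that binds ATP. Atp6v1a (the catalytic A subunit) had signals of 6598 to 9734 (median 8153) in the 2-month mice and 7279 to 9562 (median 8893) in the 15-month mice. The older mice lay within the young range, and the log2 difference was 0.074 ± 0.063 (SE), adjusted p = 0.661. Its other probe sets gave -0.0086 and -0.073, so its sign was not the same across probe sets. Atp6v1b2 (the B subunit of brain) had signals of 8218 to 11293 (median 10119) in the 2-month mice and 7948 to 11021 (median 10365) in the 15-month mice. Here too the ranges overlapped over most of their width, with a log2 difference of 0.0072 ± 0.062 (SE), adjusted p = 0.973, and a second probe set gave -0.016.

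The other V1 genes encode stalk and regulatory subunits. Atp6v1d, of the central rotor, had signals of 3126 to 3888 (median 3452) in the 2-month mice and 3415 to 4319 (median 3731) in the 15-month mice. Of the older mice 12 exceeded the 2-month mean and 3 exceeded every young mouse, and the log2 difference was 0.099 ± 0.046 (SE), adjusted p = 0.372. Atp6v1h, a regulatory subunit, had signals of 2283 to 2841 (median 2593) in the 2-month mice and 2149 to 3259.6 (median 2852) in the 15-month mice. Of the older mice 8 exceeded every young mouse, while 1 older mouse was the lowest of all, and the log2 difference was 0.11 ± 0.059 (SE), adjusted p = 0.463.

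Atp6v1c1, a subunit through which V1 detaches from V0, had signals of 2122 to 3274 (median 2807) in the 2-month mice and 2457 to 3375 (median 2869.5) in the 15-month mice. Both ages spread widely and overlapped, with a log2 difference of 0.11 ± 0.069 (SE), adjusted p = 0.515. Atp6v1g1, of the peripheral stalk, had signals of 1514 to 2232 (median 1872) in the 2-month mice and 1736 to 2239 (median 1999) in the 15-month mice. The lowest values were those of young mice, and the log2 difference was 0.10 ± 0.067 (SE), adjusted p = 0.533. Atp6v1e1, its partner in that stalk, had signals of 3786 to 4406 (median 3983) in the 2-month mice and 3503 to 4583 (median 4102) in the 15-month mice. The young mice lay within the range of the older ones, with a log2 difference of 0.0060 ± 0.047 (SE), adjusted p = 0.970.

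**Figure D4:**
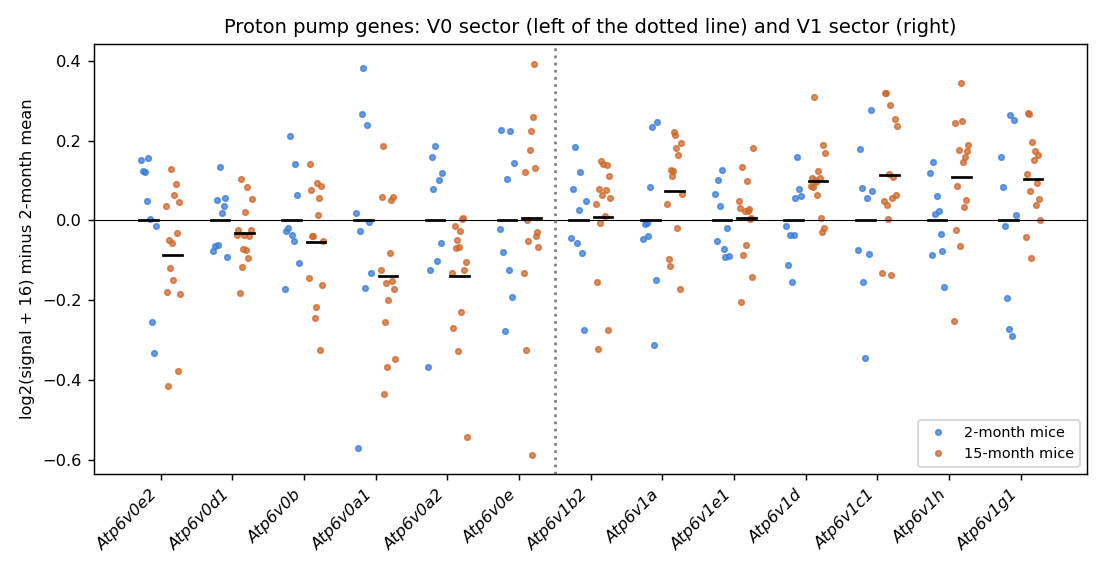
Level of each proton pump gene in every mouse as log2(signal + 16) minus the gene's 2-month mean (points), with group means (black lines); V0 genes stand left of the dotted line and V1 genes right. For 5 of 6 V0 genes the 15-month mean is below the 2-month mean, for 7 of 7 V1 genes it is above, and the points of the ages overlap in every gene.

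Strong correlations from mouse to mouse were about as frequent among pairs of these genes as among pairs of all genes. After each age's mean was removed, the median Pearson correlation over the 630 pairs of the 36 genes was -0.0033 across the 23 mice, and 0.00021 over all pairs of 5680 genes. It was 0.15 over the 21 pairs of V1 genes and 0.086 over the 15 pairs of V0 genes. Beyond 0.5 in either direction lay 30 of the 630 pairs (4.76%), against 4.11% of all pairs of genes. The strongest were Atp6v0e2 with Atp6v1b2 (0.78), Atp6v1b2 with Atp6v1a (0.72) and Ids with Atp6v0a1 (0.70), and the strongest negative pair was Lgmn with Atp6v0e2 (-0.66). These correlations are descriptions, since genes share the arrays and their scaling, and the named pairs were chosen after their values were seen. The SD of the log2 level was larger at 15 months in 19 genes and at 2 months in 17, with medians of 0.17 and 0.16.

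Bright genes were low on the arrays with the lowest upper signals, which follows in part from how those arrays were chosen, since the brightest probe sets set that percentile. On the 4 arrays with the lowest 99th percentile of signal, between 6622 and 6966 (15-month replicates 3 and 12 and 2-month replicates 7 and 8), 5 of the 6 genes with a mean signal of at least 6000 lay below the mean of their age. Their median deviation was -0.21 on the log2 scale, against -0.18 for all 213 such probe sets. Atp6v0e2 deviated by -0.30, Atp6v1b2 by -0.24, Atp6v1a by -0.22 and Psap by -0.19, while Laptm4a deviated by 0.021. The 14 genes below a signal of 1000 had a median deviation of 0.024 on these arrays. Both ages contributed to the set, and without these arrays 0 of the 36 genes were called (lowest adjusted p 0.174) and the V0 and V1 medians were -0.083 and 0.080.

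**Figure D5:**
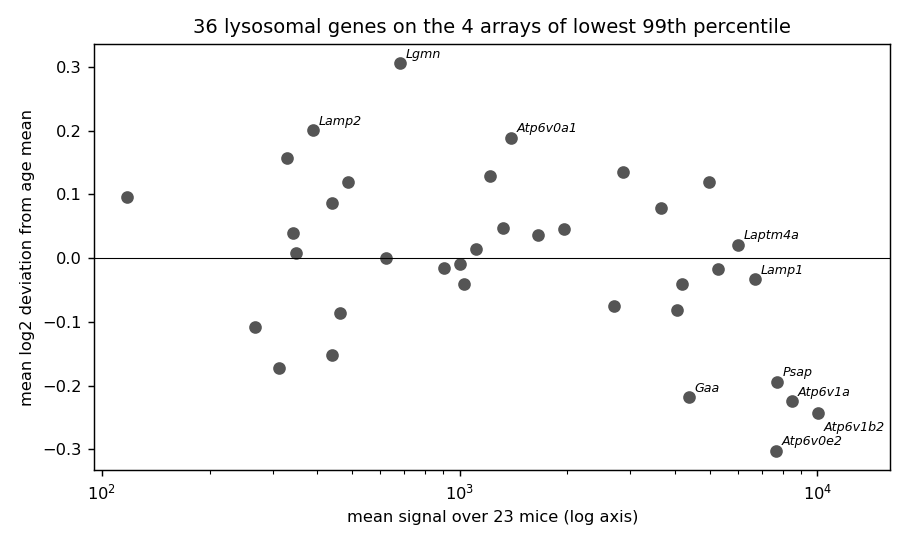
Mean log2 deviation from the mean of the same age on the 4 arrays of lowest 99th percentile, against the mean signal over 23 mice (log axis), for the 36 lysosomal genes (points). Of the 6 genes above a signal of 6000, 5 lie below 0, with Atp6v0e2 lowest at -0.30.

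Around these genes, lists of other genes of the same pathway gave 1 call. Of 50 other lysosome genes 27 were tested, with a median log2 difference of 0.022, and Ctss was the 1 called. Ctss, the protease cathepsin S that is rich in microglia, had a signal of 1725 ± 153 (SD, n = 9) at 2 months and 2443 ± 219 (SD, n = 14) at 15 months. All 14 older mice exceeded the 2-month mean, and the log2 difference was 0.50 ± 0.057 (SE), adjusted p = 9.34e-06. Ctsz, cathepsin Z, was next at 199 ± 45.6 and 278 ± 36.8, a log2 difference of 0.46 ± 0.11 (SE) with adjusted p = 0.0508, so it did not pass. Of 12 microglia markers tested, out of 17 on the array, 4 were called higher at 15 months and 0 lower, and the ranges of their mean log2 level were 8.99 to 9.30 at 15 months and 8.77 to 9.05 at 2 months. The 4 were C1qb, C1qc, Ly86 and Mpeg1, and 11 of the 12 estimates were above 0. The markers did not move alike: by limma Csf1r was at 0.014 (adjusted p = 0.954), Cx3cr1 at 0.0056 (0.990) and Coro1a at -0.20 (0.282). The part of microglia in the cathepsin values was not tested.

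Of the 16 tested genes that sort proteins to the lysosome 0 were called, 8 lay above 0 and 8 below. The lowest p belonged to Ap3b1, an AP-3 adaptor subunit, at -0.13 (adjusted p = 0.350), and to Rab7, the small GTPase of late endosomes, at -0.16 (adjusted p = 0.492). Of 18 autophagy genes 0 were called, with 6 above 0 and 12 below. Sqstm1, the cargo receptor p62, was at 0.10 (adjusted p = 0.354) and Atg16l1, needed to lipidate LC3, at -0.13 (adjusted p = 0.490). Of 7 regulators of lysosome genes tested 0 were called, with 3 above 0 and 4 below. The 7 do not include Tfeb or Mitf, which were too dim to be tested (mean signals 18.7 and 62.8). Flcn, a regulator of Rag GTPases, was at -0.20 (adjusted p = 0.250), and Lamtor2, of the complex that anchors them to the lysosome, was at 0.12 (adjusted p = 0.419). At an unadjusted p below 0.05 limma gave 1 sorting gene, 1 autophagy gene and 1 regulator.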

How the data were processed

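Per the labels' protocols, RNA was extracted with TRIzol, biotin-labelled and read on single-colour Affymetrix arrays, here with 12488 probe sets. The deposited intensity of a probe set is a linear signal that the authors computed with MAS5, per the submitters' processing notes. Its version is not given in the sources used here. Groups came from the ages in the labels. The number of arrays limits the precision.

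The 66 control probe sets were left out, and probe sets with a mean log2 level above the 40th percentile of the rest (signal 91.7) were tested. Levels were log2(signal + 16), which understates changes of dim genes. The test was limma 3.58.1 (lmFit, then eBayes with trend and robust) in R 4.3.3, two-sided, over all 23 mice, with Benjamini-Hochberg adjustment over 7453 probe sets. It was tried on simulated data with independent noise for each probe set. Those data held no effects shared across an array, so they cannot speak to such effects. Array measures were compared by exact permutation over 817190 regroupings with numpy 2.4.6. The ranks for Spearman's rho came from scipy 1.17.1.

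The genes and lists were chosen with earlier results of these data known. Lowest, median and highest signals are given for genes past the threshold, the 6 of lowest p in each direction, Lamp1, Lamp2, Hexa, Psap, Tpp1, Npc1, Gaa and every pump gene. Of the other pathway lists, genes past the threshold and the 2 of lowest p are named. Gene names came from the platform's annotation, which gave 1 symbol for 10833 of 12422 probe sets. Alternatives changed the pseudocount, filter, normalization, model, probe set rule, covariates and arrays used.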

Additional observations from a re-analysis of the deposited data

Results flagged for a closer look

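Among the 36 lysosomal genes, each examined in the 2-month group of 9 mice for a mouse standing apart, 1 did so. The lowest 2-month mouse for Lamp2, replicate 1, had a signal of 226.5, and the nearest other mouse had 334.5. That gap was 0.583 of the group's whole range, above Dixon's 95% critical value for 9 mice. Chance marks about 1 group in 20. Without that mouse or any other single mouse, the log2 difference of Lamp2 stayed between 0.10 and 0.22 and its adjusted p between 0.490 and 0.833.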

How the results depend on the processing

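None of the 36 genes was called under any alternative that was run, and the lowest adjusted p of any of them was 0.118 (Laptm4a, leaving out 1 mouse). Over all 7453 probe sets the count of calls, 28 as reported (25 higher, 3 lower), was 60 (39 higher, 21 lower) with the 25th percentile of each array as a covariate and 16 (14 higher, 2 lower) without the 5 arrays of high Ttr, an alternative chosen after seeing the data like that without the 4 arrays of lowest 99th percentile. Leaving out each mouse in turn gave 20 to 39. Of 502 pairs of a gene and a setting, 20 turned the sign of the log2 difference, in 11 genes. The estimates of those genes as reported ran from -0.030 (Gaa) to 0.074 (Atp6v1a). The turned values were Psap -0.014, Atp6v1b2 -0.012 and Atp6v1e1 -0.0052 with quantile normalization; Lamp1 0.0098 with median scaling; Man2b1 -0.0046, Psap -0.016, Atp6v1b2 -0.0046 and Atp6v1a -0.0026 with averaged probe sets; Lamp1 0.0016 and Atp6v1e1 -0.0080 with the 25th percentile covariate; and Fuca1 -0.0076 and Atp6v0e -0.017 with the choroid plexus covariate. They were Gaa 0.0022, Glb1 0.0079, Tpp1 -0.022, Lamp1 0.00090 and Atp6v0e -0.0022 without the 2 farthest arrays, Fuca1 -0.010 without the 4 arrays of lowest 99th percentile, and Glb1 0.0049 and Psap -0.0020 without the high-Ttr arrays. Leaving out 1 mouse at a time turned the sign in 10 genes, whose values then ran over Atp6v0e -0.029 to 0.051, Atp6v1b2 -0.027 to 0.033, Atp6v1e1 -0.0076 to 0.022, Fuca1 -0.051 to 0.062, Gaa -0.078 to 0.0030, Glb1 -0.048 to 0.017, Lamp1 -0.030 to 0.011, Psap -0.0070 to 0.064, Scarb2 -0.013 to 0.048 and Tpp1 -0.013 to 0.086. The cause was not tested. The median log2 difference of the genes was 0.0081 to 0.034 with 1 mouse left out, and 0.0013 to 0.040 under the other settings. Ctsz passed the threshold under some settings, with adjusted p from 0.0114 (without 15-month replicate 6) to 0.247 (without the high-Ttr arrays). No paired analysis was possible because the replicate numbers were given in accession order and the labels pair no mice. Without detection calls, signals near background carry no order.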
